A study of Homo sapiens with 21 samples.

Results

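The 10 genes described here encode the 4 adenosine receptors (ADORA1, ADORA2A, ADORA2B and ADORA3) and 6 proteins that make, remove or carry adenosine (NT5E, AHCY, ADK, ADA, SLC29A1 and SLC29A2). They were chosen by name and found through their Ensembl identifiers, and they are 10 of the 37637 features in the deposited count table. The table holds RNA-seq read counts from HepG2, an established human hepatocellular carcinoma cell line. All cultures, controls included, were moved to serum-free DMEM for 24 h, and the medium held caffeine at 0 (the control), 0.01, 0.1, 1, 10, 100 or 1000 µM. Each of the 7 groups had 3 libraries, 21 in all, which the submitters call biological replicates. Whether they came from separately grown cultures is not described further, so p-values measure the spread between these libraries, part of which may be technical. HepG2 is a single tumour line, and per the labels the groups differ by caffeine dose alone.

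Adenosine is formed outside cells by stepwise removal of phosphate from ATP and inside cells from AMP and from S-adenosylhomocysteine. It signals through G protein-coupled receptors: ADORA1 and ADORA3 lower cyclic AMP, and ADORA2A and ADORA2B raise it. Equilibrative transporters carry adenosine across the membrane, and kinase and deaminase reactions remove it. Caffeine is a classical antagonist of adenosine receptors, so the data show which receptor transcripts these cells held and how the genes of adenosine turnover stood across the dose series.

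Total counts ran from 23502519 to 44815552 per library. Clustering on 13 mitochondrial mRNAs gave 3 library sets, defined from the data and not by the study. Set A contained all control, 0.01 and 0.1 µM libraries and, of the 1 µM libraries, replicates 1 and 2. The third 1 µM library was in set B together with the whole 10 µM group, 1 library at 100 µM (replicate 2) and 2 at 1000 µM (replicates 1 and 2). The remaining 2 libraries at 100 µM and the last at 1000 µM made up set C. The mitochondrial share of the counts was 4.72% to 4.94% in set B and 9.95% or more in each library outside it. No library at 10, 100 or 1000 µM shared a set with a control, so comparisons of these doses with control are also given with library set as a term, and contrasts inside a set are given beside them. That term is tied to set A only through the 1 µM group, where replicate 3 alone lies outside it. Hepatocyte markers were present, with all 10 passing the filter and albumin (ALB) at a mean of 10370 CPM (read counts scaled to library size), and 2 of them were higher and 5 lower at 1000 µM, against 28.5% and 29.1% of all features (2 and 6 with library set as a term, against 18.2% and 19.8%). Of 15 markers of other liver cells, CD3E had no count, and PTPRC, KRT7, DCN and COL1A1 had at most 2 counts in any library. VWF and CDH5 had at most 9 and 6 counts and did not pass the filter either, and PECAM1 and CFTR were not used here. The summed level of these markers, carried mostly by LYZ and SPP1, was 1559 to 1838 CPM in controls and 2528 to 2992 CPM at 1000 µM. Of the 6 tested, LYZ, SPP1 and PDGFRB were higher at 1000 µM (log2 fold changes 0.82, 0.65 and 2.50) and CD68 and ACTA2 lower (-0.80 and -0.98). CD14 did not pass (0.65, adjusted p = 0.179 in edgeR's test). The part of these markers in the results was not tested.

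ADORA2B was the main adenosine receptor transcript, and it was highest at 1000 µM. Per length, it took 93.7% to 99.9% of the summed RPKM (read counts divided by exon length and library size) of the 4 receptors, with a median of 98.4% over the 21 libraries. When SPECC1L-ADORA2A, a readthrough gene that shares ADORA2A exons and had a mean of 2.44 RPKM, was counted as receptor transcript too, the ADORA2B share was 70.8% to 92.9% with a median of 82.4%. Its mean level was 13.7 RPKM, against 0.341 RPKM for ADORA2A, 0.0054 RPKM for ADORA1 and 0.0049 RPKM for ADORA3. Among the turnover genes the mean levels in RPKM were 167 for AHCY, 30.5 for ADK, 27.6 for NT5E, 15.96 for SLC29A1, 3.16 for ADA and 0.471 for SLC29A2.

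ADORA2B (ENSG00000170425, chr17:15944917-15975746, plus strand, protein-coding, GRCh38) encodes the low-affinity receptor that couples to adenylyl cyclase activation. Its level was 30.1, 29.2 and 26.2 CPM in the controls and 48.3, 48.9 and 54.9 CPM at 1000 µM. All 3 libraries at 1000 µM lay above every other library of the series, and the mean was 1.78 times that of the control. The log2 fold change against control was 0.83 ± 0.08 (SE), with an adjusted p of 2.91e-08 in edgeR's quasi-likelihood test (Benjamini-Hochberg). It was 0.85 when library set was a term (adjusted p = 8.86e-05 in the same edgeR test).

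The lower doses did not form a steady rise in ADORA2B. The control mean was 28.5 ± 2.02 CPM (SD, n = 3). At 0.01, 0.1, 1, 10 and 100 µM the means were, in that order, 36.1 ± 1.18, 32.3 ± 0.822, 35.3 ± 0.585, 34.1 ± 0.880 and 28.1 ± 1.96 CPM. All 3 libraries lay above all 3 controls at each of 0.01, 0.1, 1 and 10 µM, but at 100 µM only replicate 2, with 30.2 CPM, did so. The other libraries at 100 µM had 27.5 and 26.4 CPM, inside the range of the controls. In order of level, 100 µM and control overlapped, as did 1 and 0.01 µM, while the other neighbouring groups stood apart. The difference from control at 10 µM was 0.26 on the log2 scale (adjusted p = 0.0312 in edgeR's test), and with library set as a term it was 0.29 (adjusted p = 0.987).

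At 0.01 µM ADORA2B did not pass without the set term (log2 fold change 0.34, adjusted p = 0.115 in edgeR's test) and passed with it (0.34, adjusted p = 0.0305). Inside set A, which holds all libraries of both groups, the difference was 0.34 ± 0.07 (SE, adjusted p = 0.0127 in edgeR's test), a contrast added after seeing the data. Of the 8 genes tested, ADORA2B and AHCY were called in it, against 5.9% of all features.

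ADORA1 and ADORA3 were near the limit of what these libraries could measure, with at most 6 reads in a library. ADORA1 (ENSG00000163485, chr1:203090654-203167405, plus strand), an inhibitory receptor, had 15 reads in all 21 libraries together and none in 14 of them. The pooled level was 0.0214 CPM, with an exact Poisson 95% interval of 0.012 to 0.0353 CPM that covers counting error only. Its most reads in a library were 6, in replicate 1 at 100 µM, and replicates 2 and 3 of that dose had 3 and 0. The controls had 0 reads of 100198882, for which 3 counts would be 0.0299 CPM and the exact Poisson 95% interval reaches up to 0.0368 CPM. At 100 µM the interval was 0.0428 to 0.177 CPM, from 9 reads, 6 of them in 1 library.

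ADORA3 (ENSG00000282608, chr1:111499429-111503760, minus strand), another inhibitory receptor, had 8 reads in all, with 15 libraries at 0 and no library above 2. The pooled level was 0.0114 CPM (exact Poisson 95% interval 0.00492 to 0.0225 CPM). Its exons overlap on the same strand those of TMIGD3, which had 0 reads, and how the counting treated reads shared by the pair is not given in the sources used here. Neither ADORA1 nor ADORA3 passed the filter on low counts, so neither was tested in the main analysis. Tested without a filter, ADORA1 at 100 µM passed edgeR's test on those 9 reads (adjusted p = 0.0391), and no fold is given for so few reads. For ADORA3 no difference between doses was detectable at this depth. The plot of reads on the receptors shows the distance between ADORA2B and the rest.

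**Figure D1:**
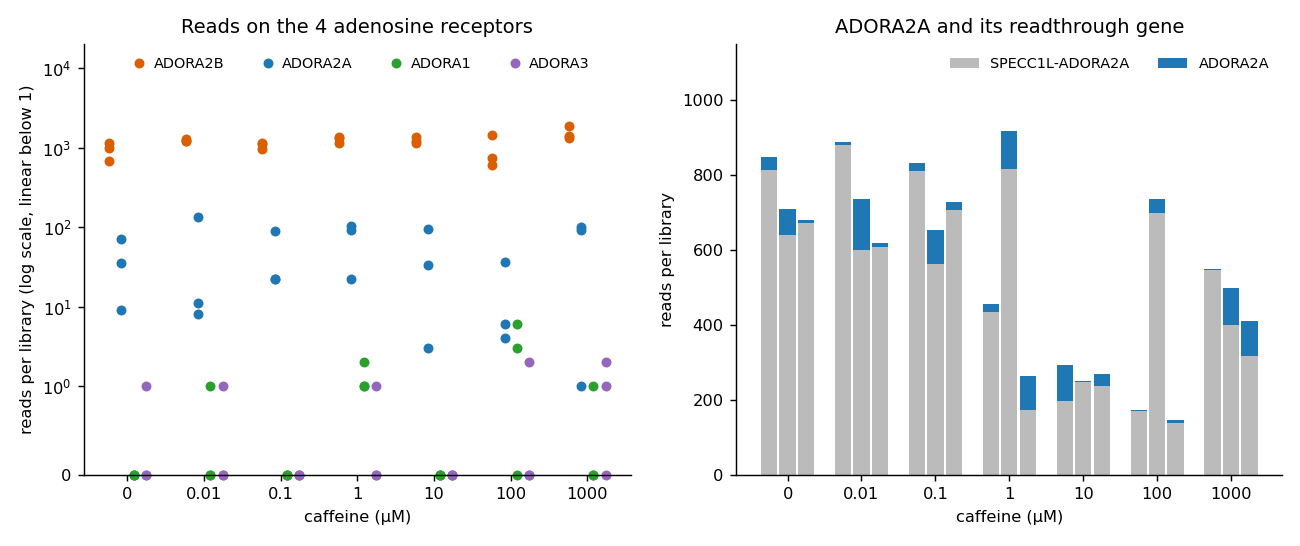
Left, reads per library on each of the 4 adenosine receptors (y axis, log scale, linear below 1) at each caffeine dose (x axis, µM); each point is a library. ADORA2B stays at or above 599 reads in every library, while ADORA1 and ADORA3 never pass 6. Right, reads per library on ADORA2A (blue) stacked on those of its readthrough gene (grey), 3 libraries per dose in replicate order.

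ADORA2A (ENSG00000128271, chr22:24417879-24442360, plus strand), the high-affinity receptor that raises cyclic AMP, varied more between libraries of a dose than between doses. It had 1 to 136 reads per library. The controls had 1.07, 1.84 and 0.35 CPM, and the 1000 µM libraries had 0.03, 3.54 and 3.86 CPM. At 0.01 µM replicate 2 had 4.10 CPM while the others had 0.22 and 0.33 CPM. Replicate 2 was also the highest library of the control, 0.1, 1 and 100 µM groups. At 10 µM replicate 1 was highest and at 1000 µM replicate 3, and a link to replicate number was not tested. The groups overlapped at every dose, and after the filter no comparison of ADORA2A passed edgeR's test (at 1000 µM, log2 fold change 1.12 ± 1.27 (SE), adjusted p = 0.47). Without a filter its difference between 1000 and 100 µM inside library sets was called.

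The ADORA2A counts cannot be read alone, because the gene shares exons on the same strand with SPECC1L-ADORA2A, a readthrough transcript that joins it to its upstream neighbour. The readthrough gene had 139 to 881 reads per library, 10672 in all against 990 for ADORA2A. ADORA2A took between 0.182% and 34.7% of their summed reads. The sum differed from control by -1.63 on the log2 scale at 10 µM (adjusted p = 0.0104 in edgeR's test) and by -1.27 at 100 µM (adjusted p = 0.00917). Adding library set as a term gave -0.19 and 0.46, and neither passed (adjusted p = 1 and 0.596). At 1000 µM the sum differed from control by -0.53 (adjusted p = 0.212 in edgeR's test) and, with that term, by 1.10 (adjusted p = 0.0979). Inside set B the sum was higher at 1000 than at 10 µM, by 1.06 on the log2 scale (adjusted p = 0.000847 in edgeR's test). Between 1000 and 100 µM it differed by 1.40 in set C (adjusted p = 0.00368 in edgeR's test) and by 0.0089 in set B (adjusted p = 0.989), a mean over the sets of 0.70 (adjusted p = 0.0143). The difference between the sets, B minus C, was -1.39 and did not pass (adjusted p = 0.152 in edgeR's test). At 100 µM the sum was 15.7 CPM in the set B library and 6.52 and 6.40 CPM in the set C libraries. An antisense gene, ADORA2A-AS1, also overlaps ADORA2A, with 127 reads in all. The upstream neighbour, SPECC1L, had 38048 reads in all. It differed from control by 0.61, 0.70 and 0.77 at 10, 100 and 1000 µM (adjusted p = 0.00195, 1.24e-05 and 1.95e-06 in edgeR's test). With library set as a term only 1000 µM passed (0.48, adjusted p = 0.015). How the counting divided reads between SPECC1L and the readthrough gene is not given, so the sum does not measure ADORA2A alone.

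The 3 stretches of promoter below are shown because ADORA2B signals through cyclic AMP, and they hold TGACG, the core of the cyclic AMP response element, in capitals. RefSeq (GRCh38.p14) gave promoters for 8 of the 10 genes, in 12 windows. The 250 bases before each start were searched on both strands for TGACG and for the full element TGACGTCA, which contains it. Relative to the start, the match begins at base -226 in ADORA2B, -127 in NT5E and -224 in 1 of the ADK promoters, all on the plus strand. These RefSeq starts lie 213, 499 and 25578 bases downstream of the GENCODE gene starts of ADORA2B, NT5E and ADK, so that the NT5E and ADK stretches lie inside the GENCODE genes and the ADORA2B stretch spans its GENCODE start.
ADORA2B, chr17:15944892-15944921: cgagctcgagcgTGACGggaagttggggca
NT5E, chr6:85449944-85449973: ggtcggatcgggTGACGtcgcgaacttgcg
ADK, chr10:74176527-74176556: taaactgcggggTGACGggacgctgttact
TGACG was in 3 of the 12 windows and in 21.2% of all 35116 promoters. TGACGTCA was in none of the windows and in 1.65% of all promoters. The same windows were searched for GGGCGG (10 of 12, against 42.6% of all promoters), GCGTG (5 of 12, 32.2%) and ACGTG (1 of 12, 18.5%). A match is a description of the letters and does not show binding.

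The genes that form adenosine moved in opposite directions at 1000 µM. NT5E rose and AHCY fell.

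NT5E (ENSG00000135318, chr6:85449584-85495791, plus strand, protein-coding) encodes CD73, the membrane enzyme that turns extracellular AMP into adenosine. Its level was 125, 122 and 147 CPM in the controls and 162, 169 and 177 CPM at 1000 µM. The groups did not overlap, and the log2 fold change was 0.36 ± 0.08 (SE, adjusted p = 0.00101 in edgeR's quasi-likelihood test), and 0.55 with library set as a term (adjusted p = 0.00245).

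Below 1000 µM the NT5E levels were no higher than in control. At 0.01, 0.1, 1 and 10 µM all 12 libraries lay below the lowest control, with means of 116 ± 5.86, 114 ± 2.93, 108 ± 9.79 and 109 ± 5.87 CPM (SD, n = 3). The difference at 10 µM was -0.27 (adjusted p = 0.036 in edgeR's test), and with library set as a term it was -0.05 (adjusted p = 1). With the replicate number as a block it stayed at -0.27 (adjusted p = 0.0518). At 100 µM the level was 133, 120 and 133 CPM, which overlapped the controls. In order of level the 6 groups other than 1000 µM each overlapped the next.

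AHCY (ENSG00000101444, chr20:34280268-34311802, minus strand, protein-coding) encodes S-adenosylhomocysteine hydrolase, which splits S-adenosylhomocysteine into homocysteine and adenosine. Its level was 667, 696 and 557 CPM in the controls and 439.5, 432 and 457 CPM at 1000 µM. All 3 libraries at 1000 µM lay below every other library, and the mean was 0.692 times that of the control. The log2 fold change was -0.53 ± 0.10 (SE, adjusted p = 0.000108 in edgeR's test). It was -0.40 with library set as a term, which no longer passed (adjusted p = 0.0559).

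The highest AHCY levels were at the lowest dose. The 0.01 µM libraries had 735, 832 and 801 CPM, all above the controls. From 0.1 to 1000 µM each group mean was lower than the one before, at 739 ± 45.2, 713 ± 22.6, 665 ± 17.3, 566 ± 83.3 and 443 ± 12.8 CPM (SD, n = 3), and of these neighbours 1 and 10 µM, and 100 and 1000 µM, did not overlap. At 100 µM the libraries divided by set, with 662 CPM in set B and 517 and 518 CPM in set C. The slope over dose ranks, counting control as rank 0, was -0.10 per rank on the log2 scale (adjusted p = 0.00129 in edgeR's test) and -0.06 with library set as a term (adjusted p = 0.365). The log2 difference between 0.01 µM and control was 0.30 and did not pass edgeR's test over all libraries (adjusted p = 0.174) or with the set term (adjusted p = 0.0632). Inside set A, a contrast added after seeing the data, it was 0.30 ± 0.08 (SE, adjusted p = 0.0295 in edgeR's test). The 2 AHCY pseudogenes in the table had at most 1 read in a library.

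**Figure D2:**
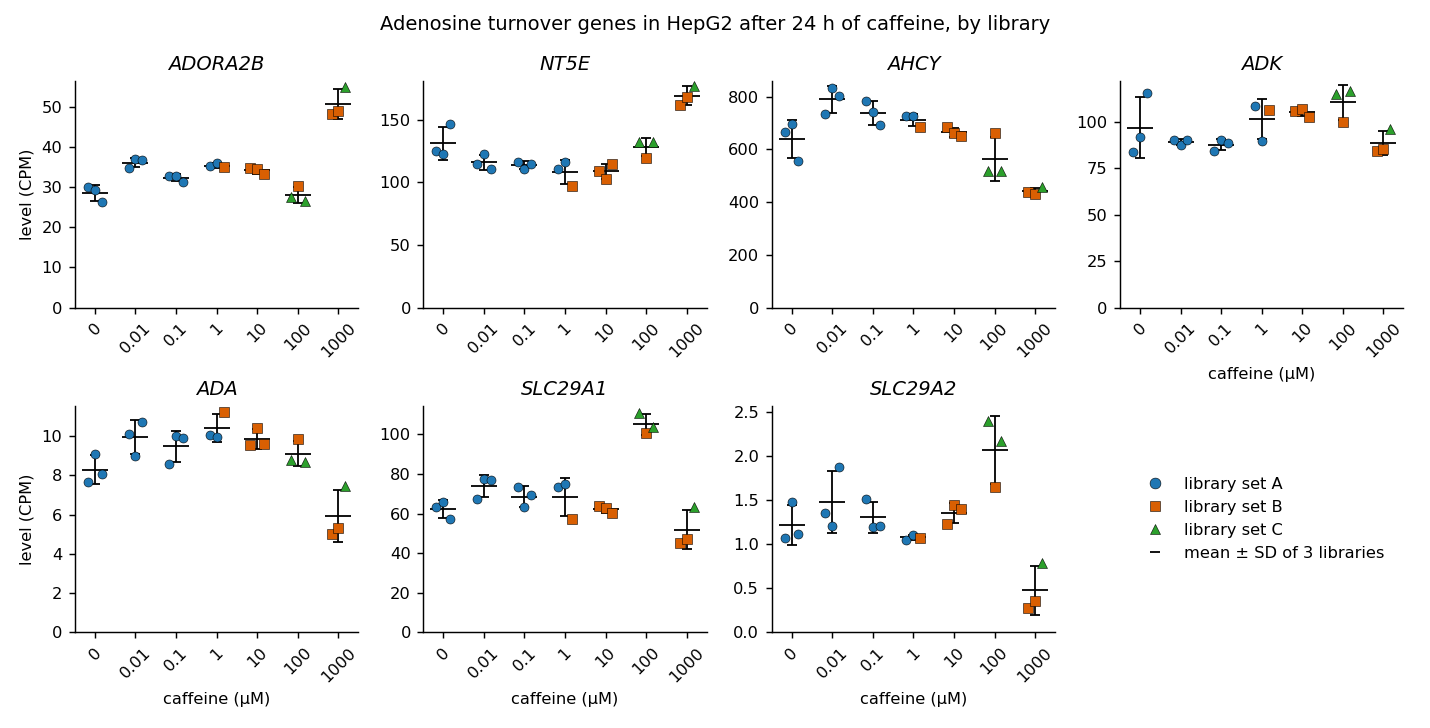
Level in CPM (y axis, from 0) of 7 adenosine turnover and receptor genes at each caffeine dose (x axis, µM). Points are libraries, coloured and shaped by library set, and bars are the mean ± SD of 3 libraries; ADORA2B and NT5E are highest at 1000 µM, AHCY, ADA and SLC29A2 lowest there, and SLC29A1 is highest at 100 µM.

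Of the genes that remove adenosine, ADA fell at 1000 µM and ADK did not differ from control beyond its spread. ADA (ENSG00000196839, chr20:44619522-44652233, minus strand, protein-coding) encodes adenosine deaminase, which turns adenosine into inosine. Its level was 7.67, 9.11 and 8.09 CPM in the controls and 5.00, 5.31 and 7.46 CPM at 1000 µM. The groups did not overlap, although the set C library at 1000 µM came close to the lowest control. The log2 fold change was -0.49 ± 0.13 (SE, adjusted p = 0.00337 in edgeR's test) and -0.72 with library set as a term (adjusted p = 0.0138).

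At the other doses ADA ran from 8.58 to 11.2 CPM. All libraries at 1 and 10 µM lay above the controls, with means of 10.4 ± 0.700 and 9.86 ± 0.494 CPM against 8.29 ± 0.742 CPM (SD, n = 3), and neither dose passed the test. ADA exons overlap those of PKIG, a protein kinase A inhibitor gene on the opposite strand, which had 27115 reads in all against 6394 for ADA. Whether the counting used strand is not given in the sources used here, so reads of the pair cannot be told apart. PKIG differed from control at 1000 µM by -0.45 (adjusted p = 0.00346 in edgeR's test), the same direction as ADA.

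ADK (ENSG00000156110, chr10:74151185-74709303, plus strand, protein-coding) encodes adenosine kinase, which returns adenosine to AMP. Its level was 83.7, 91.6 and 115 CPM in the controls and 84.2, 85.4 and 96.1 CPM at 1000 µM, within the range of the controls. Its libraries overlapped the controls at every dose, and the group means ran only from 87.7 CPM at 0.1 µM to 111 CPM at 100 µM. The log2 fold change at 1000 µM was -0.13 ± 0.10 (SE, adjusted p = 0.292 in edgeR's test). ADK did differ between the 1000 and 100 µM groups, by -0.32 (adjusted p = 0.0161 in edgeR's test).

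By group mean the transporters stood highest at 100 µM and lowest at 1000 µM. Against control, SLC29A1 did not pass at 1000 µM, and SLC29A2 did not pass at 100 µM with library set as a term. SLC29A1 (ENSG00000112759, chr6:44219505-44234151, plus strand, protein-coding) encodes ENT1, the main equilibrative nucleoside transporter of most cells. Its level was 63.4, 66.0 and 57.2 CPM in the controls, 111, 101 and 104 CPM at 100 µM and 45.2, 47.0 and 63.3 CPM at 1000 µM. Every 100 µM library lay above every other library of the series, whichever set it was in. The log2 fold change at 100 µM was 0.76 ± 0.12 (SE, adjusted p = 3.7e-05 in edgeR's test) and 0.95 with library set as a term (adjusted p = 0.000393).

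At 1000 µM the SLC29A1 libraries divided by set. The set B libraries lay below all controls and the set C library lay among them. The difference from control was -0.27 (adjusted p = 0.0629 in edgeR's test), and with library set as a term it was 0.0027 (adjusted p = 0.999). At 0.01 µM its 67.4, 77.4 and 77.01 CPM lay above all controls without passing (adjusted p = 0.327 in edgeR's test).

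SLC29A2 (ENSG00000174669, chr11:66362521-66372214, minus strand, protein-coding) encodes ENT2, a second equilibrative nucleoside transporter, and was a low transcript with 10 to 77 reads per library. Its level was 1.07, 1.48 and 1.11 CPM in the controls, 2.40, 1.64 and 2.16 CPM at 100 µM and 0.28, 0.35 and 0.79 CPM at 1000 µM. Neither dose overlapped the controls. The log2 fold change at 1000 µM was -1.42 ± 0.30 (SE, adjusted p = 0.000453 in edgeR's test) and -1.72 with library set as a term (adjusted p = 0.00309). At 100 µM it was 0.74 ± 0.26 (SE, adjusted p = 0.0271), and with library set as a term it was 0.24 (adjusted p = 0.755). Its exons overlap B4GAT1-DT on the opposite strand, which had 3915 reads in all against 895 for SLC29A2. B4GAT1-DT differed from control by -1.13 at 1000 µM (adjusted p = 2.36e-05 in edgeR's test) and by 0.09 at 100 µM (adjusted p = 0.69), and with strand use not given the reads of the pair cannot be told apart.

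Of the 10 genes, 8 passed the filter and were tested, among 17951 features. At 1000 µM against control 5 of the 8 were called at an adjusted p under 0.05, ADORA2B and NT5E higher and AHCY, ADA and SLC29A2 lower. Of all features tested 57.6% were called in that comparison, so the count is near the background share. The set term left 4 of 8, all but AHCY, against 38% of all features.

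At 100 µM SLC29A1 and SLC29A2 were called, 2 of 8, against 46.6% of all features, and at 10 µM ADORA2B and NT5E were called, 2 of 8, against 14.8%. The counts with the set term were 1 (17.3% of all features) and 0 (0.0279%). At 0.01, 0.1 and 1 µM edgeR's test called 0 of 8, against 0.0279%, 0% and 0.106% of all features. At these doses 4, 3 and 3 of the 8 had an unadjusted p under 0.05, against 15.0%, 9.48% and 15.7% of all features. DESeq2's Wald test gave an adjusted p to 6 of the 8 (not to ADORA2A or SLC29A2) and called 2, 0 and 2, against 3.13%, 0.498% and 3.22% of all features with one. The set term gave 1, 0 and 0 calls, against 3.02%, 0.0223% and 0.629% of all features. Inside set A, 0.1 µM against control gave 0 calls in edgeR's test (0.546% of all features), with 3 genes at an unadjusted p under 0.05 (17.2% of all features). In the joint test over the 6 doses 7 were called, all but ADORA2A, against 73.6% of all features, and 7 again with the set term (59.8%). The slope over dose ranks called ADORA2B and AHCY, 2 of 8, against 55.3%, and with library set as a term 0 (4.27%). Without any single 1000 µM library ADORA2B lost its slope call.

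The 1000 µM libraries were also compared with libraries of the same set. Inside set B, 1000 µM (2 libraries) differed from 10 µM (3 libraries) for 7 of the 8 genes, against 60.1% of all features. ADORA2B was higher by 0.51 ± 0.07 on the log2 scale (SE, adjusted p = 6.33e-06 in edgeR's test) and NT5E by 0.60 ± 0.08 (adjusted p = 1.77e-06). AHCY was lower, at -0.61 ± 0.09 (adjusted p = 5.37e-06 in edgeR's test), as was ADA, at -0.94 ± 0.11 (adjusted p = 6.53e-07). SLC29A2 stood at -2.10 ± 0.28 (adjusted p = 2.46e-06 in edgeR's test), SLC29A1 at -0.43 ± 0.08 (adjusted p = 0.000212) and ADK at -0.31 ± 0.10 (adjusted p = 0.013). The directions of ADORA2B, NT5E, AHCY, ADA and SLC29A2 were those of the comparison with control. That comparison includes the same 2 libraries at 1000 µM, so the 2 are not independent.

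**Figure D3:**
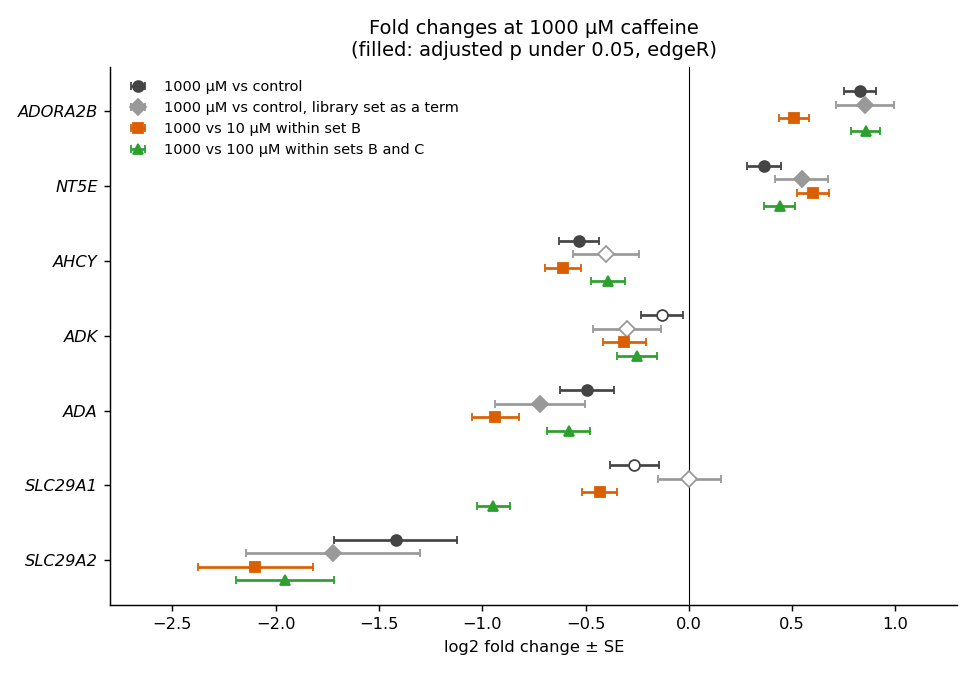
Log2 fold changes ± SE (x axis) of 7 genes (y axis) at 1000 µM in 4 comparisons, marked by shape and colour; filled symbols passed an adjusted p of 0.05 in edgeR's test. ADORA2B and NT5E lie right of 0 and ADA and SLC29A2 left of 0 in all 4, and every symbol for the contrasts inside library sets is filled.

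Between the highest doses, 1000 against 100 µM, the same 7 genes were called (44% of all features), also with library set as a term (46.3%) and as the mean of the differences inside sets B and C (47.3%). In the mean over sets the log2 differences were 0.86 for ADORA2B, 0.44 for NT5E, -0.39 for AHCY, -0.25 for ADK, -0.58 for ADA, -0.95 for SLC29A1 and -1.95 for SLC29A2. This contrast rests on few libraries: without replicate 2 at 100 µM, the only 100 µM library of set B, 4 of the 7 calls were left. Taken alone, set B gave 6 calls among the 8 genes and set C gave 4 (43.2% and 26.4% of all features). ADA differed by -0.94 in set B and -0.23 in set C (adjusted p = 2.69e-05 and 0.302 in edgeR's test). AHCY differed by -0.60 in set B and -0.18 in set C (adjusted p = 0.000233 and 0.28 in edgeR's test). The difference between the sets passed for none of the 8 genes (0.0947% of all features did); 4 had an unadjusted p under 0.05 (16.2% of all features), and for ADA it was -0.71 (adjusted p = 0.134 in edgeR's test).

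The transcripts most like 3 of these genes across the 21 libraries were sought among 10864 features by Pearson's r of the log2 level, given as a description. All points share library depth and library set, so r after removing the set means is given too. For ADORA2B they were CARS1, a cysteinyl-tRNA synthetase gene (r = 0.944, and 0.962 after set means), and ZFAND3 (0.942 and 0.940). For AHCY they were CCAR2 (0.990 and 0.982) and EDC4, which encodes an mRNA decapping scaffold (0.976 and 0.956). For NT5E they were CEP57 (0.971 and 0.970) and POLK, a translesion DNA polymerase gene (0.962 and 0.970).

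The surrounding genes of purine handling were followed in 6 lists, all at 1000 µM against control. Over all features tested the median log2 fold change was -0.01, and 28.5% were called higher and 29.1% lower, or 18.2% and 19.8% with library set as a term. Each list's counts stand against these shares, and nothing particular to a list is read from them. Named below are at most 3 genes each way, those called with the smallest p.

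Among ectonucleotidases, related phosphatases and their family members, 12 of 18 were tested, 2 rose and 6 fell (57.6% of all features were called), with a median of -0.28. ENTPD1 (CD39), which takes ATP to AMP, stood at 28.2 ± 1.80 CPM in controls and 93.0 ± 9.70 CPM at 1000 µM (SD, n = 3), a log2 fold change of 1.72 (adjusted p = 9.54e-11 in edgeR's test). ENPP1, a pyrophosphatase that releases AMP from ATP, rose from 123 ± 11.4 to 237 ± 23.4 CPM. ENTPD8 fell from 2.85 to 1.15 CPM, ENTPD2 from 45.03 to 24.7 CPM and ENTPD5 from 356 to 253 CPM. The set term left 2 higher and 3 lower, and ENTPD5 no longer passed (adjusted p = 0.0516 in edgeR's test). In all 5 genes the 1000 µM libraries did not overlap the controls.

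Among intracellular nucleotidases, deaminases and salvage enzymes 22 of 29 were tested, 8 rose and 5 fell (median 0.11), a share called close to the 57.6% of all features. The AMP deaminase genes went apart: AMPD3 rose from 0.742 to 2.58 CPM and AMPD2 fell from 60.5 to 31.5 CPM (log2 fold changes 1.80 and -0.95). The nucleotidase gene NT5C3A rose from 20.4 to 31.8 CPM. PNP, the phosphorylase that acts on inosine after ADA, fell from 55.6 to 37.5 CPM, and the mitochondrial nucleotidase gene NT5M from 1.31 to 0.725 CPM. In the fit with the set term 2 rose and 6 fell, the median was -0.01, and NT5C3A no longer passed (adjusted p = 0.0787 in edgeR's test).

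Among other genes of nucleoside transport and ATP release 8 of 12 were tested, none rose and 4 fell (median -0.40), against 57.6% of all features called, with the same counts when library set was a term (38% of all features). SLC28A1, a sodium-coupled nucleoside transporter, stood at 2.28 ± 0.144 CPM in controls and 0.447 ± 0.284 CPM at 1000 µM (SD, n = 3), a log2 fold change of -2.42 (adjusted p = 2.19e-06 in edgeR's test). GJB1, the main gap junction protein of hepatocytes, fell from 103 to 49.6 CPM. SLC17A9, the vesicular nucleotide transporter, fell from 198 to 136 CPM.

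In the methionine cycle, where AHCY acts, 15 of 16 were tested, 6 rose and 4 fell (median 0.16), against 57.6% of all features called. GNMT, a liver methyltransferase that yields S-adenosylhomocysteine, stood at 3.504 ± 0.485 CPM in controls and 0.356 ± 0.198 CPM at 1000 µM (SD, n = 3), a log2 fold change of -3.37 (adjusted p = 7.19e-10 in edgeR's test). BHMT2, a homocysteine methyltransferase gene, fell from 66.9 to 48.5 CPM. MAT2A, the S-adenosylmethionine synthetase of proliferating cells, rose from 132 to 201 CPM, CTH, which makes cysteine from cystathionine, from 20.6 to 36.7 CPM, and BHMT from 1.497 to 2.89 CPM. The set term gave 5 higher and 3 lower, and the median was -0.12.

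Of 22 listed genes of receptor coupling (G protein subunits, adenylyl cyclases and DPP4, the surface protein that anchors ADA), 20 were found and 14 tested, and 4 rose and 3 fell (median 0.04), against 57.6% of all features called. GNAI2, an inhibitory alpha subunit, fell from 138 to 49.0 CPM and GNAL, a stimulatory one, from 8.81 to 3.27 CPM. GNAQ, the alpha subunit that activates phospholipase C, rose from 56.3 to 110.1 CPM, and DPP4 from 416 to 577 CPM. ADCY6 and ADCY9 moved apart, with log2 fold changes of 0.65 and -0.42, and neither passed with library set as a term (adjusted p = 0.132 and 0.225 in edgeR's test).

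Of 17 listed P2 receptor genes, 13 were found and 8 tested, and 2 were called higher and 5 lower (median -1.05), against 57.6% of all features called. P2RX1 passed the filter only through the 1000 µM group, with 0 to 7 reads in each of the other 18 libraries, so its call is no support; without it 1 of 7 was higher and 5 lower (median -1.29). P2RX1, an ATP-gated channel, had 4, 7 and 4 reads in the controls and 176, 146 and 144 at 1000 µM, which is 0.152 ± 0.0298 against 5.21 ± 0.740 CPM (SD, n = 3). P2RY8, grouped with these receptors by name, fell from 14.6 to 2.89 CPM, P2RY2, a receptor for ATP and UTP, from 5.83 to 2.39 CPM, and P2RX4 from 14.6 to 8.34 CPM. P2RX5 passed (log2 fold change 0.42, adjusted p = 0.00926 in edgeR's test) although its groups overlapped, and not with library set as a term (adjusted p = 0.259). With that term and without P2RX1, 0 were higher and 3 lower (38% of all features were called).

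**Figure D4:**
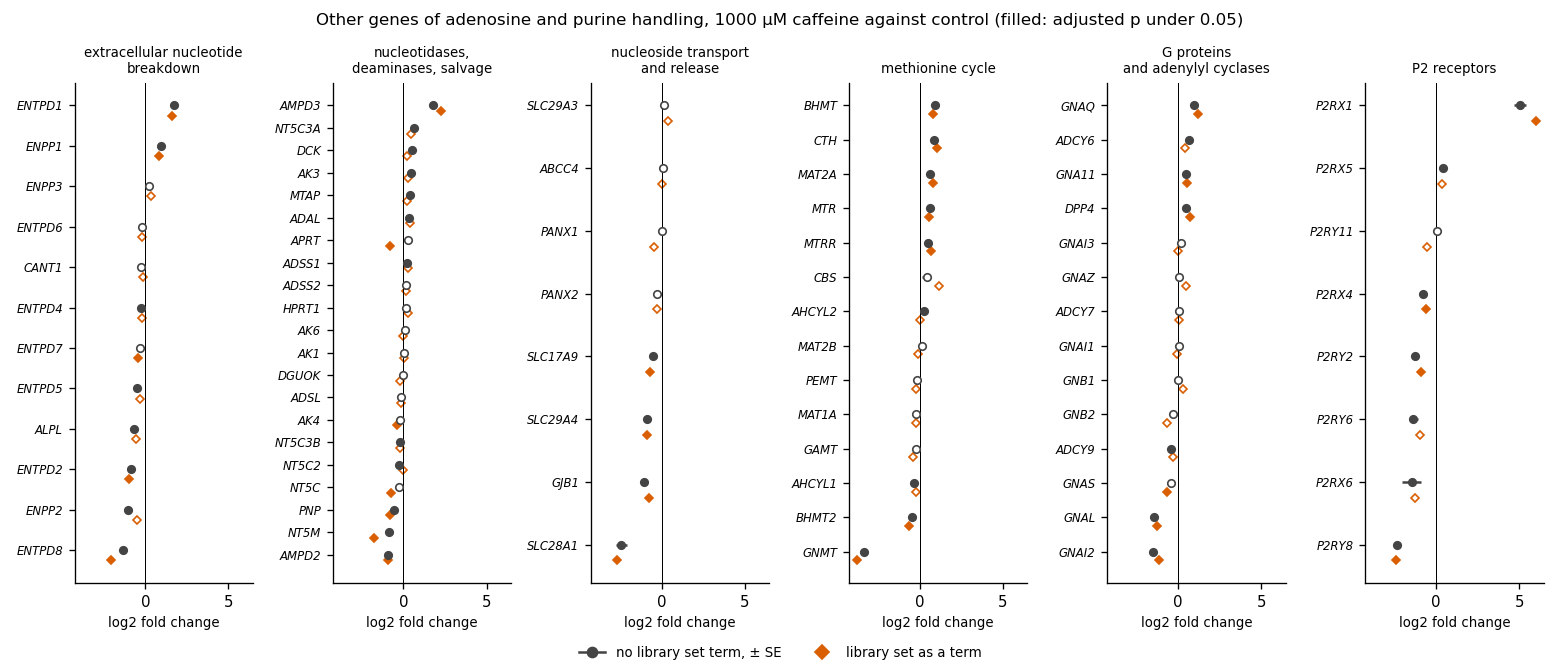
Log2 fold changes at 1000 µM against control (x axis) of tested genes of 6 lists (y axis). Dark circles are without (± SE) and orange diamonds with library set as a term, filled where the adjusted p was under 0.05. In the methionine cycle panel GNMT lies farthest left, at -3.37, and P2RX1 is plotted although it passed the filter only through the 1000 µM group.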

How the data were processed

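Values are the authors' whole-number counts of reads for each feature, deposited unnormalized. The submitters' processing notes name HISAT2, DESeq2 and GRCh38. The counting tool, annotation release and use of strand are not given in the sources used here. Of the per-sample columns, 21 that match no sample were not used here. Coordinates and merged exon lengths came from GENCODE 29 on GRCh38.

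Features were filtered with filterByExpr by group. The main test was the quasi-likelihood F-test of edgeR 4.0.16 in R 4.3.3, with TMM scaling and 1 fit over 21 libraries. P-values were 2-sided and adjusted by Benjamini-Hochberg over all 17951 features kept. SE is the absolute log2 fold change over the square root of F. Contrasts inside library sets came from a fit with a mean per combination of dose and set; combinations with 1 library were assumed to vary like the others. The fits were tested on simulated data.

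Genes, lists and comparisons were chosen with earlier results of these data known. Named list genes were those called with the smallest p at 1000 µM, at most 3 each way; 2 such genes are not reported here. Alternatives were DESeq2 1.42.0 (its size factors and its Wald test), a minimum mean of 5 CPM, no filter, a replicate block, library set as a term, log10 dose and each library left out.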

Additional observations from a re-analysis of the deposited data

How the results depend on the processing

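None of the 32 fold changes called turned direction under any alternative run. Over these alternatives a call was lost 42 times, 32 of them with 1 library left out and 6 with library set as a term, and a value not called was called 17 times. Of the 56 values not called, 24 changed sign in some alternative.

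With library set as a term the number of the 8 tested genes called was 1 at 0.01 µM (0 without), 0 at 10 µM (2 without), 1 at 100 µM (2 without) and 0 for the slope (2 without). DESeq2's Wald test called 2 at 0.01 µM and 2 at 1 µM (3.13% and 3.22% of its features), against 0 in edgeR's test. Without a filter 0 were called at 10 µM (4.98% of features), and a mean of at least 5 CPM left 1 at 100 µM (55.5%), since SLC29A2 was not tested. Without a filter ADORA1 was called at 100 µM on 9 reads, and ADORA2A between 1000 and 100 µM inside library sets. With log10 dose over treated libraries the slope called ADA, AHCY and NT5E (58.1% of features). The causes were not tested.

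The replicate block left 1 call at 10 µM (2 without; 12.7% of features) and changed no other count. The mean correlation between the deviations of same-numbered libraries ran from -0.108 to 0.152 over group pairs, and 1 of 21 pairs passed 0.1. Library set was not removed from these deviations, so whether the numbers pair the libraries cannot be told from them.

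Leaving out each library in turn gave 0 to 0 calls for 0.01, 0.1 and 1 µM. The range was 0 to 2 for 10 µM, 1 to 3 for the 100 µM group and 5 to 6 for the highest dose. It was 6 to 7 in the joint test, 1 to 3 for the slope, 6 to 7 for 1000 against 100 µM, 4 to 7 for the same inside sets and 6 to 7 for 1000 against 10 µM inside set B. At 10 µM none was left without control replicate 3 or any 10 µM library. SLC29A2 lost its call at 100 µM without replicate 1 or 3 of that dose or of the control. The shares of all features called with a library left out are not given here, so these ranges stand without a background. Depth limits ADORA1 and ADORA3, with 15 and 8 reads in all.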
